A study of Mus musculus with 4 samples.

Results

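Spleen cluster 0 is the largest group of regulatory T (Treg) cells in the deposited clustering of the spleen at steady state. Its cells were those with cluster number 0 in the deposited cell table, 3699 of 10912 spleen cells and of 14875 cells in the series. The working description of the cluster is a Treg population high in Gata1, Gpr83 and Bcl2, with Ms4a4c and Ecm1 as further markers. All 4 libraries came from C57BL/6 mice, and live CD4+ TCRβ+ YFP+ cells (YFP is a yellow fluorescent protein) were sorted to more than 95% purity and processed with 10x Genomics 3' chemistry. The ICOS FC group has the genotype label ICOS-deficient and the ICOS WT group carries intact ICOS by its label, with spleen cells taken untreated, and the series also holds cervical draining lymph node cells of both genotypes 1 day after challenge with oxazolone, a contact sensitizer. The labels do not say which part of Icos was deleted, what drives YFP or any recombinase, how old the mice were or how many were pooled. Each group was 1 library, so genotype and library cannot be told apart, no difference between them was tested, and the bracketed 95% intervals cover counting error only.

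Treg cells, which hold immune responses in check, are CD4+ T cells defined by the lineage factor Foxp3. In the spleen they are commonly divided into resting (central) cells, which carry lymphoid homing receptors and rely on interleukin 2 (IL-2) for survival, and effector cells, which carry activation, tissue homing and suppressive molecules. IL-2 acts through CD25 and its partner chains on the factor STAT5, which induces Bcl2 and feedback inhibitors of the SOCS family. ICOS, a relative of CD28, is a costimulatory receptor that signals mainly through PI3K.

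The ICOS FC library gave 1940 cluster 0 cells of 5917 spleen cells (32.8% [31.6, 34.0], exact binomial), against 1759 of 4995 (35.2% [33.9, 36.6]) in the ICOS WT library. The same table also numbers clusters at another resolution, described below. There a larger cluster, which held most cells of clusters 0 and 3, made up 45.5% of ICOS FC and 43.3% of ICOS WT, so the order of the libraries turned. Cluster 3 by itself was 15.9% of ICOS FC and 10.7% of ICOS WT. Cluster 0 cells held 9617987 UMIs (unique molecular identifiers, each a captured transcript) in ICOS FC and 10238573 in ICOS WT. Median UMIs per cell were 4658.5 in ICOS FC and 5518 in ICOS WT, and mitochondrial genes made up 3.82% and 3.98% of a cell's counts at the median. With 3 counts as the limit that a count of 0 allows, an undetected gene could reach 0.312 counts per 1000000 UMIs (CPM) in ICOS FC and 0.293 CPM in ICOS WT. Thinning, used below for shares of cells, kept the 1922 cells of ICOS FC and 1745 of ICOS WT with at least 2000 UMIs. No cell barcode was shared by the cluster 0 cells of both libraries, while 8 were shared by the whole spleen libraries. The numbering at another resolution put 3484 of the 3699 cells (94.2%) into 1 cluster that also held 1189 of the 1474 cells of cluster 3. Of the libraries, the one labelled ICOS FC had more Icos, with values below, so every direction between the libraries goes by their labels alone.

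**Figure D1:**
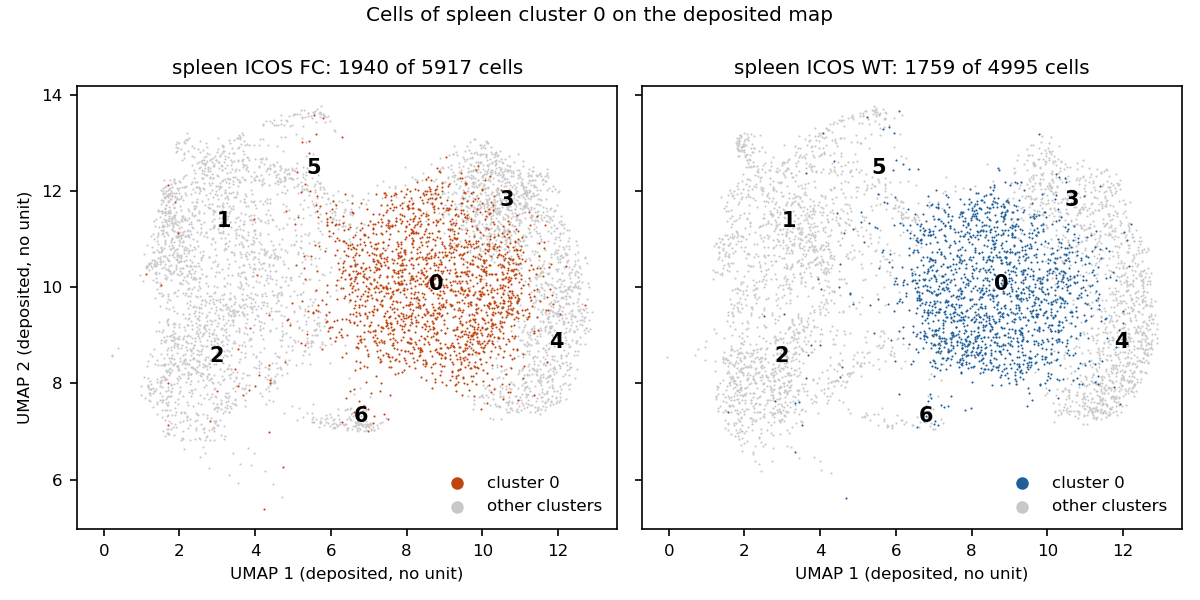
Spleen cells on the deposited UMAP axes (no unit), 1 panel per library, ICOS FC on the left and ICOS WT on the right. Coloured points are the 1940 and 1759 cells of cluster 0, grey points are the other cells, and numbers mark the median position of each cluster.

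Transcripts of Foxp3 and of Treg surface proteins were present in cluster 0. Foxp3, the lineage factor (chromosome X, 7573644 to 7595245, GRCm38), was at 63.3 CPM in ICOS FC and 69.1 CPM in ICOS WT. After every cell was thinned to 2000 UMIs, a Foxp3 UMI was seen in 11.6% [10.2, 13.1] of cluster 0 cells in ICOS FC and in 210 of 1745 cells in ICOS WT; without thinning the shares were 23.7% and 27.6%. Cluster 4, the spleen cluster with the lowest Foxp3 and median depths of 4845 and 5492 UMIs, gave 1.23% and 0.545% thinned and 2.44% and 1.22% unthinned, and its shares are set beside those of cluster 0 as a background for Foxp3 and Il2ra. For genes that T cells in general express it is a comparison and no background. Il2ra, which encodes CD25, was seen in 31.0% and 32.3% of thinned cluster 0 cells, against 1.38% and 1.23% in cluster 4, and in 51.0% and 57.5% of cluster 0 cells unthinned. Cd3e, a chain of the T cell receptor complex, was seen in 65.9% and 60.7% thinned, against 67.6% and 61.3% in cluster 4, and in 90.5% and 90.5% unthinned. Other cell types were looked for because the sort could hold them, and their part in the values below was not tested. Sums are over cluster 0, against the other spleen cells. Erythroid markers, of interest because Gata1 is best known from red cell development, summed to 0.416 CPM in ICOS FC and 0 CPM in ICOS WT over 9 genes, against 2.95 and 1.06 CPM in the other cells, and Alas2, Klf1, Epor, Slc4a1 and Hba-a2 had no UMI. The summed platelet markers were at 12.7 and 14.9 CPM over 7 genes against 14.0 and 15.9 CPM in the other cells, with Pf4, Ppbp, Gp9, Gp1bb and Treml1 at 0, and the summed mast cell and basophil markers were at 4.16 and 3.91 CPM over 9 genes against 2.63 and 2.89 CPM in the other cells, with Cpa3, Mcpt8 and Fcer1a at 0. These sums came to few transcripts in cluster 0 and the other cells alike. B cell markers (9 genes) summed to 25.2 and 25.1 CPM against 111 and 116 CPM in the other cells, with Pax5 at 0 in cluster 0. Myeloid markers (10 genes) summed to 108 and 101 CPM against 148 and 133 CPM in the other cells, with S100a8, S100a9 and Itgax at 0. CD8 T and NK markers (9 genes) summed to 31.2 and 27.0 CPM against 75.7 and 111 CPM in the other cells, with Klrb1c, Klrk1 and Ncr1 at 0. Each of the last 3 sums was lower in cluster 0 than in the other cells. Within the CD8 T and NK sum, Cd8b1 was near the other cells, at 19.8 against 18.1 CPM in ICOS FC and 15.8 against 19.0 CPM in ICOS WT. Markers of conventional CD4 T cells (7 genes), a type the sort gate could also pass, summed to 277 and 331 CPM against 317 and 358 CPM in the other cells.

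Set against the other spleen cells of the same library, cluster 0 was described by a rule of size that a gene had to meet in both libraries: at least 20 CPM in cluster 0 or the rest, a 1.5-fold ratio and an interval clear of equality. These are the values that the clustering itself used, so they describe the cluster and nothing was tested. Of 5029 genes at that level, 38 were higher in cluster 0 (0.756%) and 266 were lower (5.29%). The median gene stood at a log2 ratio of -0.16 in ICOS FC and -0.17 in ICOS WT. Ribosomal protein genes took 42.4% of the UMIs of cluster 0 in ICOS FC, against 37.0% in the other cells, and 42.2% against 36.5% in ICOS WT. Scaling by the median of gene ratios moved every log2 ratio up by 0.19 in ICOS FC and 0.20 in ICOS WT and gave 66 higher and 167 lower genes. Leaving ribosomal protein and mitochondrial genes out of the totals moved the median by 0.13 and 0.14 and gave 82 higher and 290 lower genes. Values below are on library totals, and the position of the median gene is the level to read them from.

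Gata1, a zinc finger factor of the erythroid and megakaryocyte lineages that has also been described as a partner of Foxp3 in Treg cells (chromosome X, 7959260 to 7978071), had 186 UMIs in cluster 0 of ICOS FC and 246 in ICOS WT. Its level was 19.3 CPM in cluster 0 against 5.37 CPM in the other cells of ICOS FC, and 24.0 against 4.84 CPM in ICOS WT. The log2 ratios were 1.85 [1.49, 2.22] and 2.31 [1.95, 2.69], and Gata1 missed the rule of size only through its level in ICOS FC, just under 20 CPM. Among the clusters with at least 50 cells of a library it was highest in cluster 0, followed by cluster 3 at 12.4 CPM in ICOS FC and 10.3 CPM in ICOS WT; cluster 6 of ICOS WT, with 47 cells and 7 Gata1 UMIs, stood at 30.2 CPM. A Gata1 UMI was found in 2.81% [2.12, 3.65] of thinned cluster 0 cells in ICOS FC and 4.87% [3.91, 5.99] in ICOS WT, and in 8.56% and 12.2% unthinned. In cluster 4 it was found in 0 of 652 thinned cells of ICOS FC and in 0.409% of those of ICOS WT, and unthinned in 0.916% [0.337, 1.98] and 1.22% [0.560, 2.31]. Of the usual erythroid companions of Gata1, the genes Gata2, Tal1, Klf1, Gfi1b and Nfe2 had no UMI in cluster 0, but others were detected. Zfpm1 was at 26.3 against 35.0 CPM in the other cells of ICOS FC and 29.8 against 44.9 CPM in ICOS WT. Ldb1 was at 76.0 against 73.3 CPM in ICOS FC and 84.0 against 81.7 CPM in ICOS WT.

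Bcl2, the inhibitor of apoptosis (chromosome 1, 106538178 to 106714274), was the marker with the most transcripts. It stood at 685 CPM in cluster 0 against 298 CPM in the other cells of ICOS FC, and at 821 against 280 CPM in ICOS WT (log2 1.20 and 1.55). Cluster 0 was the highest of the clusters with at least 50 cells, and cluster 3 followed at 502 CPM in ICOS FC and 554 CPM in ICOS WT, while cluster 2 was the lowest at 184 and 132 CPM. A Bcl2 UMI was seen in 64.5% and 70.5% of thinned cluster 0 cells, against 31.4% and 31.9% in cluster 4, which itself held Bcl2 at 235 and 238 CPM, and in 82.9% and 89.3% unthinned. At 5 CPM or more, where 0.903% of 8306 genes were higher in cluster 0 and 7.56% lower, of 10 measured members of the BCL2 family Bcl2 was the single gene higher in cluster 0, and the pro-apoptotic Bid and Pmaip1 were lower. Mcl1, another survival member, differed little, at 463 CPM against 423 CPM in ICOS FC and 417 against 382 CPM in ICOS WT.

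Gpr83, a G protein-coupled receptor found on mouse Treg cells (chromosome 9, 14860210 to 14870789), was at 92.1 CPM in cluster 0 against 35.6 CPM in the other cells of ICOS FC and at 114 against 39.7 CPM in ICOS WT. The log2 ratios were 1.37 [1.22, 1.52] and 1.52 [1.38, 1.66]. Ecm1, a secreted matrix glycoprotein (chromosome 3, 95734147 to 95739569), was at 106 against 47.6 CPM in ICOS FC and 83.8 against 32.4 CPM in ICOS WT (1.15 and 1.37). Of the clusters with at least 50 cells, cluster 5 came next for both genes, and for Ecm1 in ICOS FC its 92.6 CPM did not differ from cluster 0 beyond counting error (log2 0.19 [-0.05, 0.44]). Ms4a4c, a membrane protein of the MS4A family (chromosome 19, 11404770 to 11427246), was at 69.1 against 27.9 CPM in ICOS FC and 76.3 against 26.9 CPM in ICOS WT (1.31 and 1.51). It was not highest in cluster 0 of ICOS FC, where cluster 6 stood at 145 CPM, and with the other clusters weighted equally its smaller ratio was 0.56, under 1.5-fold. Ms4a4c was the single gene of 5 measured MS4A family members past the fold.

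**Figure D2:**
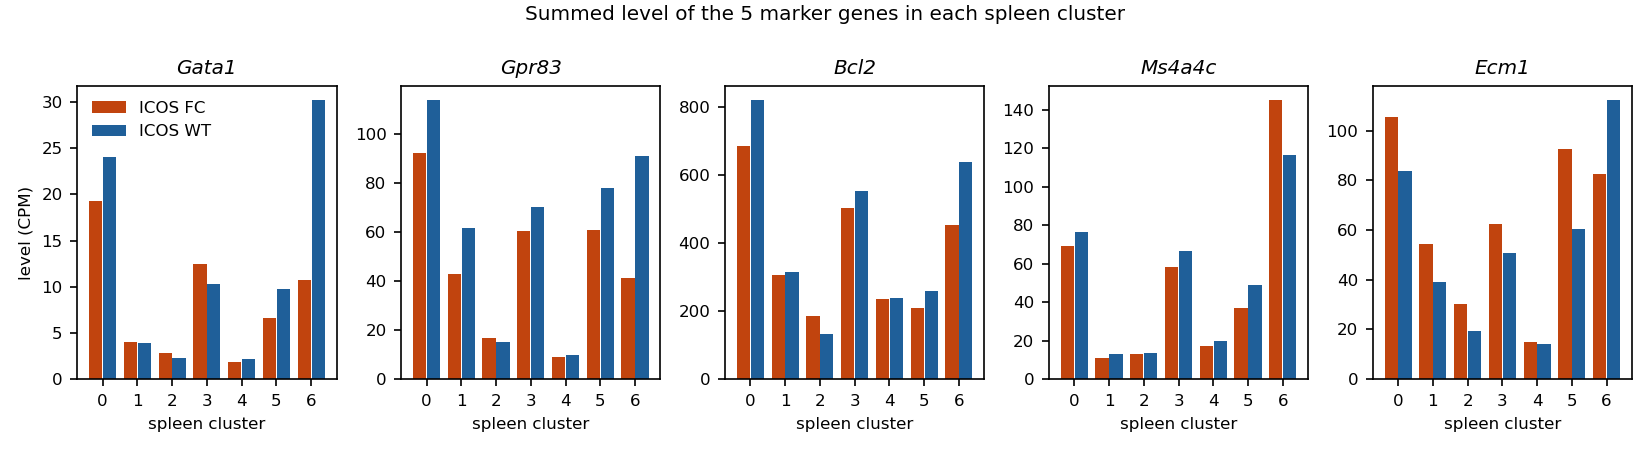
Level in CPM of the 5 marker genes in each spleen cluster, ICOS FC on the left of each pair of bars and ICOS WT on the right, with UMIs summed over the cells of a cluster and library. Cluster 0 is highest for Bcl2 in both libraries, and Ms4a4c reaches 145 CPM in cluster 6 of ICOS FC; the ICOS WT bars of cluster 6 rest on 47 cells.

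Thinned cells of cluster 0 were scored by how many of the 5 markers had a UMI. Low counts limit this score: a Gata1 UMI was seen in 2.81% of these cells in ICOS FC and 4.87% in ICOS WT. A cell without a UMI of a marker may still express it. The score therefore cannot decide whether single cells carry the markers together. Among thinned cells, 22.6% in ICOS FC and 18.7% in ICOS WT had a UMI of none of the 5 markers, and none had all 5. A share of 27.9% in ICOS FC and 31.5% in ICOS WT had 2 or more, against 17.3% and 19.6% in cluster 3 and 3.07% and 2.32% in cluster 4. Cluster 6 came nearest, at 23.9% in each library, on 113 thinned cells of ICOS FC and 46 of ICOS WT. Cluster 5 stood at 10.6% and 18.2%. The mean number of markers seen was 1.11 and 1.19 in cluster 0, against 0.956 and 0.978 in cluster 6 and 0.841 and 0.865 in cluster 3. Within thinned cells of cluster 0 the variance of Bcl2 counts over their mean was 1.66 in ICOS FC and 1.66 in ICOS WT, rank 26 of 2155 genes, where the median gene had 1.04 and 1.04. Bcl2 had a mean of 1.39 UMIs a cell in ICOS FC and 1.64 in ICOS WT, against 0.21 and 0.21 for the median gene. The rank was not adjusted for the mean, and the part of abundance in it was not tested. Rgs1, a regulator of G protein signalling, had 2.18 and 2.20, and Ikzf2, the Treg factor Helios, had 2.14 and 2.07; these genes were picked for their rank after the values were seen.

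The other leading genes were Mbnl3, Rcn1, Gsta4, Treml2, Ly6c1, Chchd10, Itih5, Igf2r, Sh3bp5, Espn and Gsto1. Mbnl3, an RNA-binding splicing regulator, was at 38.5 against 15.3 CPM in ICOS FC and 35.5 against 14.5 CPM in ICOS WT, a log2 ratio of 1.33 [1.10, 1.56] and 1.29 [1.06, 1.53]. Rcn1, a calcium-binding protein of the endoplasmic reticulum, was at 57.3 against 25.5 CPM in ICOS FC and 63.1 against 22.4 CPM in ICOS WT. Itih5, a hyaluronan-binding inhibitor chain, was at 30.6 against 15.6 CPM in ICOS FC and 37.2 against 11.2 CPM in ICOS WT. Igf2r, the mannose 6-phosphate receptor, and Gsto1, a glutathione transferase, passed the rule of size but were not highest in cluster 0: Igf2r was at 95.1 CPM in cluster 0 and 100.5 CPM in cluster 3 of ICOS FC, within counting error. Ly6c1, a GPI-anchored surface protein of resting and memory T cells, was at 173 CPM in cluster 0 and 208 CPM in cluster 3 of ICOS FC, and at 243 and 269 CPM in ICOS WT. Of the 16 leading genes including the markers, cluster 0 was the highest for 10 among the 7 clusters of ICOS FC and for 13 among the 6 clusters of ICOS WT with at least 50 cells. The interval against the next cluster was clear of equality for 5 and 10 of them. With the 47 cells of cluster 6 counted, the number in ICOS WT became 10, as Gata1, Ms4a4c and Ecm1 were higher there.

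Among the 15 genes lowest in cluster 0 were Klrg1, Ccr2, S100a4, S100a6, Maf, Il1rl1 and Cxcr3 of the effector Treg list. This low level was shared with the clusters most like cluster 0: the 15 genes summed to 198 CPM in ICOS FC and 173 CPM in ICOS WT in cluster 0, to 159 and 176 CPM in cluster 3 and to 189 and 177 CPM in cluster 4, while clusters 1, 2, 5 and 6 lay between 951 and 5318 CPM. The ratios that follow are against all other spleen cells pooled. Klrg1, an inhibitory receptor of terminal effector cells, had 3 UMIs in cluster 0 of ICOS FC and 4 in ICOS WT, or 0.312 against 25.6 CPM in the other cells and 0.391 against 28.4 CPM, a log2 ratio of -6.36 [-8.64, -4.80] and -6.19 [-8.07, -4.82]. Ccr2, a receptor for inflammatory chemokines, had 5 and 6 UMIs (-5.53 and -5.94). S100a4 was at 7.59 against 216 CPM in ICOS FC and 13.5 against 401 CPM in ICOS WT, and S100a6 at 26.3 against 417 CPM in ICOS FC and 24.0 against 454 CPM in ICOS WT; both encode small calcium-binding proteins. Maf, a factor of effector and follicular cells, was at 26.3 against 233 CPM in ICOS FC and 22.9 against 253 CPM in ICOS WT. Lag3, an inhibitory receptor, Il1rl1, the IL-33 receptor of tissue Treg cells, and Cxcr3, a chemokine receptor of type 1 inflammation, had log2 ratios between -3.67 and -3.05 in both libraries. The remaining genes named among the lowest were Ttc39c, Lgals3, Ccl5, Cd83, Nav2, S100a11 and Cd74, with log2 ratios between -6.41 and -2.66.

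The other gene lists were counted at the same 5 CPM, and the median gene stood at -0.17 in ICOS FC and -0.18 in ICOS WT. All 16 measured effector Treg genes were lower and 0 higher, with a median of -2.71 in ICOS FC and -2.78 in ICOS WT. Against the most like clusters alone they were not low: of 11 measured, 0 were lower and Lgals1 was higher against cluster 3 (0.24 and 0.25), and 0 were lower and Tnfrsf9, Maf and Cxcr3 higher against cluster 4 (0.46 and 0.59). Of 7 follicular Treg genes 6 were lower, among them Cxcr5, Bcl6 and Pdcd1 (median -1.33 and -1.29), and of 13 proliferation genes 11 were lower, among them Mki67 and Top2a (-1.16 and -0.78). T cell receptor-induced early genes split: Myc, a transcription factor of cell growth, was higher, and Nr4a1, Nr4a3, Egr1, Egr2, Egr3 and Tnfrsf9 were lower, of 10 measured (-1.13 and -1.84). Of 12 suppressive molecules Ecm1 was higher and 7 were lower, including Lag3, Fgl2, Ebi3 and Itgb8 (-1.11 and -1.08), and Il10 had 0.312 CPM in ICOS FC and 0 CPM in ICOS WT. These lists too were mostly not low against the most like clusters alone. Against cluster 3 and against cluster 4, 0 of 5 follicular genes and 0 of 7 T cell receptor-induced early genes were lower. Of 8 suppressive molecules, 2 were higher and 0 lower against cluster 3, and 5 higher and 1 lower against cluster 4. Of 10 proliferation genes, 3 were lower against cluster 3 and 1 against cluster 4, and 0 were higher.

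The IL-2 and STAT5 list ran above the median gene, at 0.14 in ICOS FC and 0.43 in ICOS WT, with Il2ra, Socs1 and Bcl2 higher and 0 lower of 14. Bcl2 is itself a marker of the cluster, as are Gpr83, Gata1, Ecm1 and Ms4a4c, which are among the higher members of other lists. Their higher levels are part of the cluster's description. Il2ra, Il2rb and Socs2 belong to both this list and the Treg identity list. Il2ra was at 232 against 131 CPM in ICOS FC and 256 against 103 CPM in ICOS WT. The resting and lymphoid homing list stood at 0.24 and 0.28, with 2 higher, among them Bach2, and Il7r and Dapl1 lower of 14. Bach2, a repressor that maintains resting lymphocytes, was at 77.5 against 47.9 CPM in ICOS FC and 86.3 against 56.1 CPM in ICOS WT, while Il7r, the IL-7 receptor chain that is low on most Treg cells, was at 194 against 501 CPM in ICOS FC and 281 against 499 CPM in ICOS WT. The Treg identity list held Il2ra, Lrrc32 and Gpr83 as higher and Ikzf2, Tnfrsf4, Nrp1 and Itgae as lower of 15 (-0.42 and -0.23). Of 13 factors described with Foxp3, Gata1 and Bach2 were higher and Irf4 and Gata3 lower (0.02 and -0.02). Of 15 cholesterol synthesis genes, 3 were higher, among them Sqle, and 0 lower (0.36 and 0.19). None of 83 ribosomal protein genes reached 1.5-fold, and their median was 0.19 and 0.21. Of 14 migration receptors Gpr83 was higher and 7 were lower, among them Ccr4, Ccr6 and Cxcr6, and of 14 costimulatory and inhibitory receptors 5 were lower, Icos included. Of 11 migration receptors, 1 was higher and 0 lower against cluster 3 alone, and 1 higher and 1 lower against cluster 4. Of 13 costimulatory and inhibitory receptors, 2 were higher and 1 lower against cluster 3, and 6 higher and 0 lower against cluster 4. The short list of CD8 T and NK markers stood at -2.34 and -2.44, with Nkg7 and Klrd1 lower of 3. Cd8b1 did not pass in either direction, at 19.8 against 18.1 CPM in ICOS FC and 15.8 against 19.0 CPM in ICOS WT. For the lists of Foxp3 partners, GATA factors, immediate early genes, interferon response and oxidative phosphorylation the sign of the median turned with the scaling in at least 1 library, so they are given no direction.

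**Figure D3:**
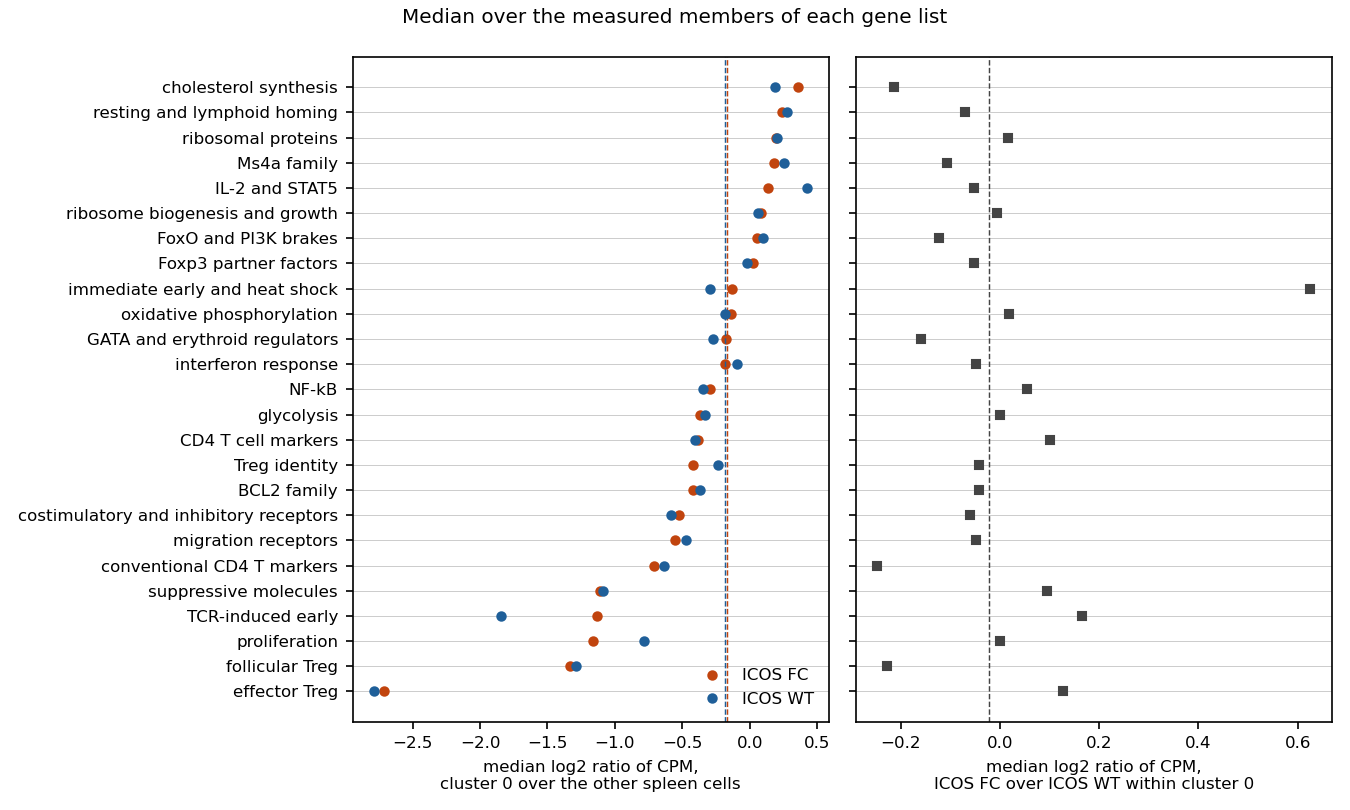
Median log2 ratio over the measured members of each gene list with at least 3 members. Left, cluster 0 over the other spleen cells in ICOS FC and ICOS WT; right, ICOS FC over ICOS WT within cluster 0; dashed lines mark the median of all genes. The effector Treg list is lowest on the left (-2.71 and -2.78), and the immediate early and heat shock list is highest on the right at 0.63.

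The clusters most like cluster 0 in their profile over 6162 genes were cluster 3 (Pearson r 0.986, libraries pooled) and cluster 4 (0.964), and the others lay between 0.903 and 0.937. Against cluster 3, 65 of 4750 genes were higher in cluster 0 (1.37%) and 58 lower (1.22%). The highest were Socs2, Cish, Lrrc32, Tmem158, Myc, Fabp5, Socs1, Cdk6, Lap3 and Timm8a1. Socs2, a feedback inhibitor of cytokine signalling, was at 55.6 CPM in cluster 0 and 13.0 CPM in cluster 3 of ICOS FC, and at 55.8 and 10.8 CPM in ICOS WT (log2 2.10 [1.66, 2.57] and 2.37 [1.80, 3.01]). Cish, another STAT5-induced inhibitor, was at 98.5 and 35.6 CPM in ICOS FC and at 107 and 38.3 CPM in ICOS WT. Lrrc32, which encodes GARP, the surface carrier of latent TGF-beta, was at 67.6 and 24.6 CPM in ICOS FC and at 72.1 and 16.4 CPM in ICOS WT. Of the markers, Gpr83 and Ecm1 passed the rule of size against cluster 3, while Bcl2 (0.45 and 0.57) and Ms4a4c (0.25 and 0.20) were under 1.5-fold. Gata1 was past 1.5-fold with both intervals clear of equality (0.64 [0.16, 1.15] and 1.22 [0.61, 1.89]) and missed the rule only through its 19.3 CPM in ICOS FC. The lowest against cluster 3 were Pde3b, Stmn1, Selenop, Hmgb2, Rflnb, Fam46c, Ranbp10, Klf3, Cenpa and Tdrp, with log2 ratios from -2.36 to -0.89.

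By lists at 5 CPM, where 1.22% of 8032 genes were higher and 1.28% lower against cluster 3, the IL-2 and STAT5 list had Il2ra, Il2rb, Cish, Socs1 and Socs2 higher and 0 lower of 14, with a median of 0.45 in ICOS FC and 0.55 in ICOS WT beside -0.01 and -0.03 for all genes. Il2rb, the signalling chain shared by the IL-2 and IL-15 receptors, was at 247 CPM in cluster 0 and 123 CPM in cluster 3 of ICOS FC, and at 293 and 131 CPM in ICOS WT. The Treg identity list had 8 members higher and 0 lower of 14 (0.60 and 0.66), among them Tnfrsf18, Tnfrsf4 and Capg. Those 8 also include Il2ra, Il2rb and Socs2, counted in the IL-2 and STAT5 list too, and the marker Gpr83. The cholesterol synthesis list had 5 higher of 15, among them Mvd, Idi1, Fdps and Sqle (0.50 and 0.76), and the ribosome biogenesis and growth list had Myc, Nop58, Nolc1, Eif5a and Mybbp1a higher of 14 (0.53 and 0.63). The resting and lymphoid homing list pointed the other way, with Ccr7, Lef1, Tcf7, Satb1 and Il7r lower and 0 higher of 14 (-0.26 and -0.52). Tcf7, a factor of resting and memory T cells, was at 206 CPM in cluster 0 and 350 CPM in cluster 3 of ICOS FC, and at 195 and 342 CPM in ICOS WT. The proliferation list had Stmn1, Cenpa and Hmgb2 lower and 0 higher of 10; these encode a microtubule regulator, a centromere histone and a chromatin protein.

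Against cluster 4, the Foxp3-low cells, 199 of 4699 genes were higher in cluster 0 (4.23%) and 89 lower (1.89%). By lists at 5 CPM, where 4.49% of 8018 genes were higher and 2.17% lower, all 14 measured Treg identity genes were higher (median 3.66 in ICOS FC and 3.91 in ICOS WT), and 8 of 14 IL-2 and STAT5 genes were higher and 0 lower (1.29 and 1.33). Il2ra was at 232 CPM in cluster 0 and 6.08 CPM in cluster 4 of ICOS FC, and at 256 and 6.99 CPM in ICOS WT. Of the resting and lymphoid homing genes 7 of 14 were lower in cluster 0, among them Lef1, Tcf7, Igfbp4 and Dapl1, and 0 were higher. The lowest genes were Pdlim4, Nacc2, Klrd1, Ggt5, Pde3b, Hs3st3b1, Dapl1, Vipr1, Sgk1 and Rgcc. Pdlim4 had 0.312 CPM in cluster 0 and 80.5 CPM in cluster 4 of ICOS FC, and 1.56 and 101 CPM in ICOS WT.

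**Figure D4:**
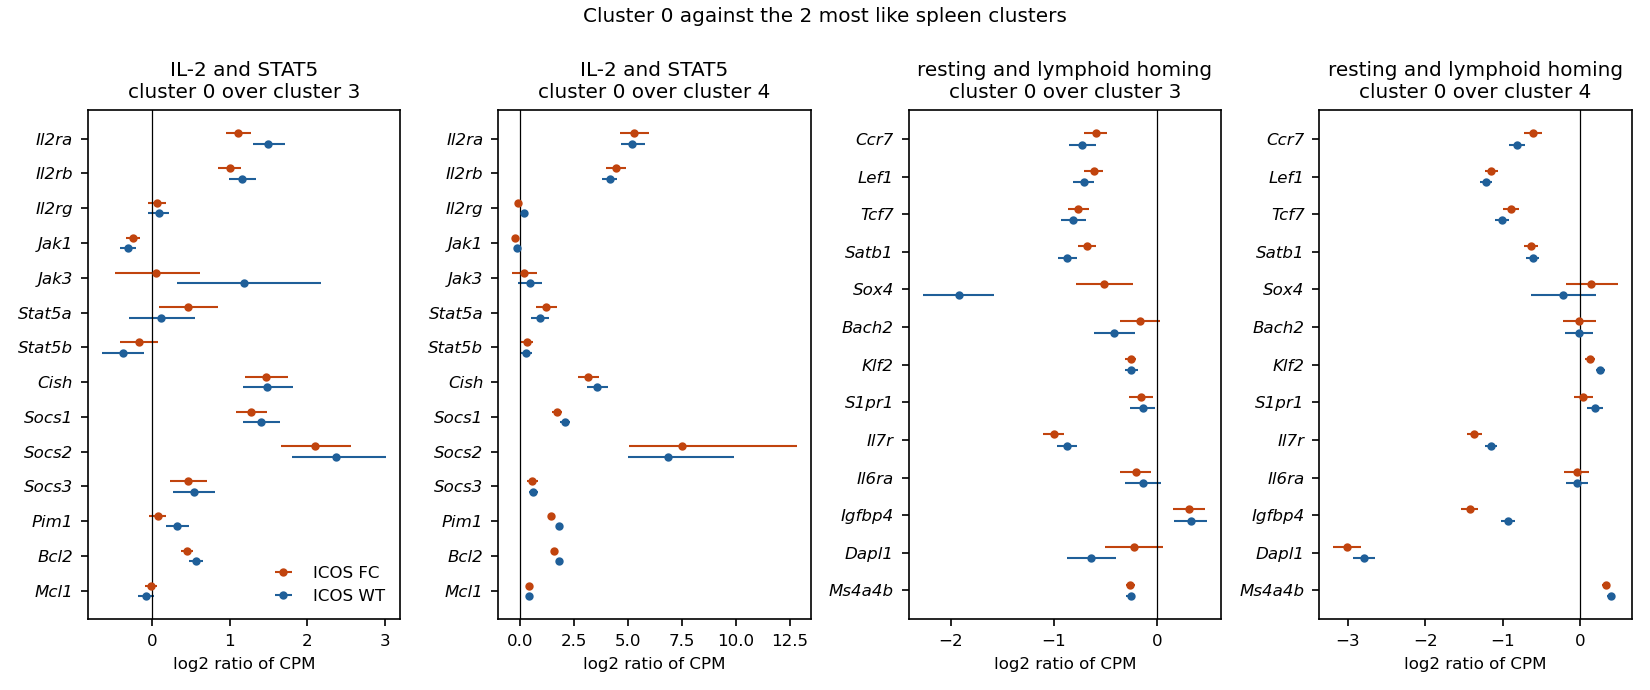
Log2 ratio of CPM, cluster 0 over cluster 3 or cluster 4, for the 14 genes of the IL-2 and STAT5 list (left panels) and for genes of the resting and lymphoid homing list (right panels). Points are the ICOS FC and ICOS WT libraries and bars their 95% counting intervals. Il2ra, Il2rb, Cish, Socs1 and Socs2 lie above 0 against both clusters, and Ccr7, Lef1, Tcf7, Satb1 and Il7r below 0.

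Within cluster 0 the ICOS FC library was set against the ICOS WT library by the same rule of size. Among 4796 genes at 20 CPM or more, 18 were higher in ICOS FC (0.375%) and 9 lower (0.188%), and the median gene stood at -0.02. Leaving ribosomal protein and mitochondrial genes out of the totals gave 31 higher and 24 lower. In the other spleen cells 41 of 5290 were higher (0.775%) and 23 lower (0.435%), and 11 of the 18 and 5 of the 9 passed there too. Cluster 0 cells of ICOS FC held fewer UMIs at the median than those of ICOS WT. With every cell thinned to 2000 UMIs, 38 genes were higher and 47 lower, and 15 of the 18 and 6 of the 9 were among them.

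Icos, the targeted gene (chromosome 1, 60977927 to 61000320), had 544 UMIs in cluster 0 of the ICOS FC library and 319 in ICOS WT, or 56.6 against 31.2 CPM. It was thus higher in the library labelled ICOS-deficient, with a log2 ratio of 0.86 [0.66, 1.06]. In the other spleen cells it was at 362 CPM in ICOS FC and 161 CPM in ICOS WT (1.17 [1.11, 1.24]), and the ratio in cluster 0 minus that in the other cells was -0.31 [-0.52, -0.10]. After thinning, an Icos UMI was seen in 10.7% of cluster 0 cells in ICOS FC and 5.67% in ICOS WT, beside 7.52% and 5.31% in cluster 4, and unthinned in 19.5% and 14.2%. A 3' tag outside the deleted part does not check the label, and whether this one lies outside it is not known here.

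None of the 5 markers of cluster 0 passed the rule of size between the libraries. Gata1 was at 19.3 CPM in ICOS FC and 24.0 CPM in ICOS WT (-0.31 [-0.60, -0.03]), and in thinned cells its ratio was -0.81, past 1.5-fold. Gpr83 was at 92.1 CPM in ICOS FC and 114 CPM in ICOS WT (-0.30 [-0.43, -0.18]). Bcl2 was at 685 CPM in ICOS FC and 821 CPM in ICOS WT (-0.26 [-0.31, -0.21]), while in the other spleen cells it was at 298 and 280 CPM (0.09 [0.04, 0.15]), a difference between the ratios of -0.35 [-0.43, -0.28]. By cluster, Bcl2 was also lower in ICOS FC in cluster 3 (-0.14 [-0.25, -0.04]) and cluster 5 (-0.32 [-0.52, -0.11]), near equality in clusters 1 and 4 (-0.04 and -0.01) and higher in cluster 2 (0.48 [0.32, 0.63]). Ms4a4c was at 69.1 CPM in ICOS FC and 76.3 CPM in ICOS WT (-0.14 [-0.29, 0.01]), and Ecm1 at 106 CPM in ICOS FC and 83.8 CPM in ICOS WT (0.33 [0.20, 0.47]). Foxp3 was at 63.3 CPM in ICOS FC and 69.1 CPM in ICOS WT (-0.13 [-0.28, 0.03]), against 0.38 [0.24, 0.52] in the other cells; in clusters 1, 3 and 5 the interval held equality.

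The genes higher in ICOS FC were led by immediate early genes, which are induced within minutes of a stimulus. What raised them in this library was not tested. Fos, an AP-1 subunit, had 651 UMIs in ICOS FC and 136 in ICOS WT, or 67.7 CPM in ICOS FC against 13.3 CPM in ICOS WT (log2 2.35 [2.08, 2.63]). Of its partners, Junb was at 528 CPM in ICOS FC against 236 CPM in ICOS WT (1.16), and Jun at 203 CPM in ICOS FC against 90.2 CPM in ICOS WT (1.17). Fosb, another AP-1 subunit, had 202 UMIs in ICOS FC and 60 in ICOS WT (1.84). Ppp1r15a, a stress-induced phosphatase subunit, was at 62.3 CPM in ICOS FC against 23.0 CPM in ICOS WT, and Dusp1, a MAP kinase phosphatase, at 47.3 CPM in ICOS FC against 23.0 CPM in ICOS WT. A Fos UMI was seen in 11.1% [9.71, 12.6] of thinned cluster 0 cells in ICOS FC and 2.18% [1.55, 2.98] in ICOS WT (22.2% and 5.97% unthinned), and a Junb UMI in 55.8% and 35.2% (79.8% and 61.7% unthinned). The thinned shares in cluster 4 were 8.90% and 1.63% for Fos and 62.3% and 33.5% for Junb.

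At 5 CPM, where 0.949% of 8117 genes were higher in ICOS FC and 0.875% lower, 7 of 14 immediate early and heat shock genes were higher and 0 lower, and all 14 intervals lay above equality. The median was 0.63 beside -0.02 for all genes. The 7 were Fos, Fosb, Jun, Junb, Dusp1, Zfp36 and Ppp1r15a, and the heat shock members stayed under 1.5-fold, with Hsp90aa1 at 570 CPM in ICOS FC and 416 CPM in ICOS WT (0.45) and Hspa8 at 0.32. Fos was higher in ICOS FC by log2 2.63, 2.68, 2.12 and 2.85 in clusters 1, 2, 3 and 4, and in cluster 5 it was at 60.3 CPM in ICOS FC and 62.6 CPM in ICOS WT (-0.05 [-0.46, 0.36]). The Fos ratios of cluster 0 and the other cells differed by 0.20 [-0.12, 0.52], and those of Junb by 0.28 [0.20, 0.37].

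Other genes higher in ICOS FC were Ly6k, Sik1, Sox4, Rgs2 and Pink1. Ly6k, a GPI-anchored protein of the Ly6 family, was at 27.7 CPM in ICOS FC and 7.62 CPM in ICOS WT (1.86 [1.49, 2.24]). Sox4, a factor of immature and resting lymphocytes, was at 32.9 CPM in ICOS FC and 14.8 CPM in ICOS WT (1.15 [0.86, 1.43]). Its ratio in the other cells was 0.37, so that cluster 0 exceeded them by 0.78 [0.42, 1.14], but Sox4 was also higher in ICOS FC in cluster 4 (0.78 [0.32, 1.24]) and in cluster 1, on 22 and 4 UMIs (2.11 [0.55, 4.11]). In cluster 3, where Sox4 was highest, it was at 46.9 CPM in ICOS FC and 56.4 CPM in ICOS WT (-0.27 [-0.61, 0.07]). Rgs2, a regulator of G protein signalling, was at 27.7 CPM in ICOS FC against 12.6 CPM in ICOS WT, Pink1, a mitochondrial kinase, at 41.5 CPM in ICOS FC against 20.8 CPM in ICOS WT, and Sik1, a salt-inducible kinase, at 20.4 CPM in ICOS FC against 7.52 CPM in ICOS WT. The rest of the 18 were Zfp36, Coq10b, Cebpb, Tnfaip3 and Phlda1, between 0.62 and 0.74, and an unnamed gene model at 1.06.

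Med10, a subunit of the Mediator complex, was at 68.0 CPM in ICOS FC and 145 CPM in ICOS WT (-1.09 [-1.23, -0.96]). Its ratio was -1.13 in the other spleen cells, and -1.17, -1.25, -1.15, -1.15 and -0.80 in clusters 1 to 5. Myo6, a myosin motor, was at 11.4 CPM in ICOS FC and 26.6 CPM in ICOS WT (-1.22 [-1.55, -0.89]), against -0.67 in the other cells, a difference between the ratios of -0.55 [-1.02, -0.07]. By cluster the ratios were -1.41 [-2.60, -0.32], -0.91, -0.64, -0.12 [-0.89, 0.63] and -2.03 [-4.49, -0.14] in clusters 1 to 5, so the lower level was not particular to cluster 0. Jaml, a junctional adhesion molecule, was at 12.4 CPM in ICOS FC and 22.5 CPM in ICOS WT (-0.86 [-1.19, -0.54]), while the other cells showed 5.37 and 5.55 CPM; in cluster 3 its ratio was -0.96 [-2.24, 0.29], on 11 and 14 UMIs. Thy1, the T cell surface protein CD90, was at 149 CPM in ICOS FC and 227 CPM in ICOS WT (-0.61), and Ddit4, an inhibitor of mTORC1, at 121 CPM in ICOS FC and 184 CPM in ICOS WT (-0.60). Both lay close to 1.5-fold and stood below it with scaling by the median of gene ratios (-0.58 and -0.58), and for both the ratio in the other cells was larger in size, at -0.81 and -1.02. The remaining lower genes were Dapl1, Ggact, a predicted gene model and Rnaset2a, whose reads may be shared with the near-identical Rnaset2b.

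**Figure D5:**
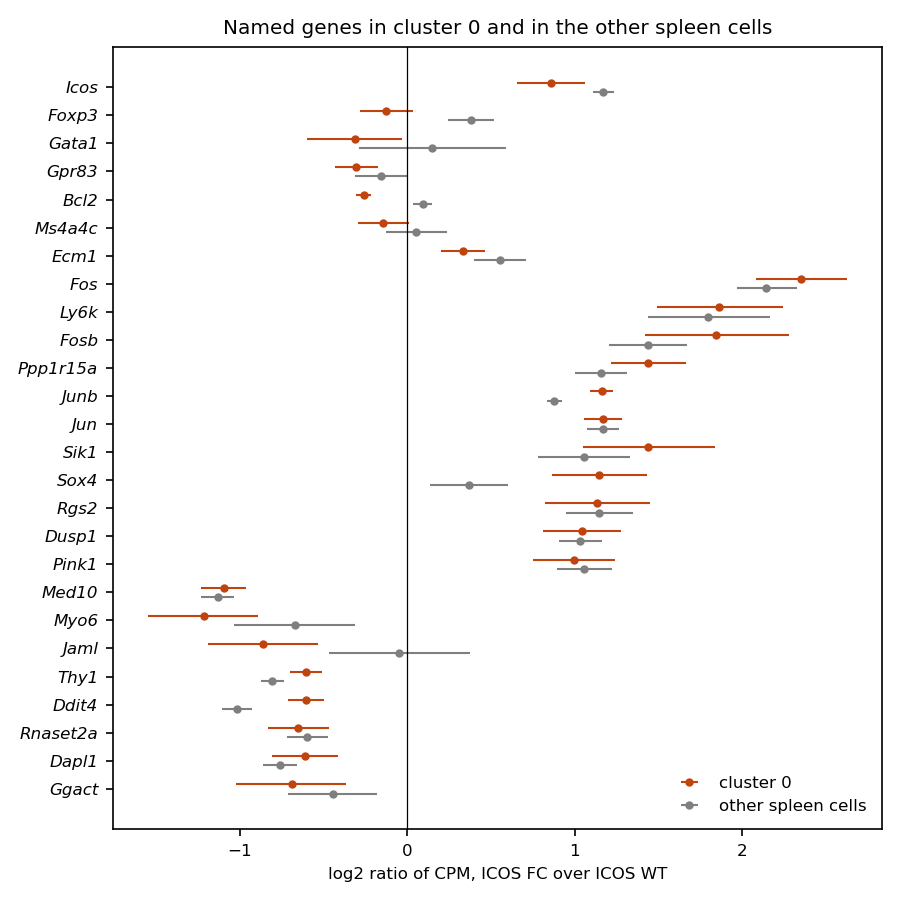
Ratio between the libraries (log2, ICOS FC over ICOS WT) for the named genes, in cluster 0 and in the other spleen cells, with 95% counting intervals. Fos is at 2.35 in cluster 0 and 2.15 in the other cells, Sox4 at 1.15 and 0.37, Jaml at -0.86 and -0.05, and Bcl2 at -0.26 and 0.09.

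In the lists of quiescence and metabolism most differences stayed below 1.5-fold. Over all 8117 genes at 5 CPM, 0.949% were higher in ICOS FC and 0.875% lower by the rule of size, and 6.76% of intervals lay above equality and 10.4% below. Of 14 FoxO and PI3K brake genes Ddit4 was lower in ICOS FC and 0 were higher, 8 intervals lay below equality and 0 above, and the median was -0.12. Klf2, the FoxO-induced factor that maintains lymphoid homing, was at 860 CPM in ICOS FC and 903 CPM in ICOS WT (-0.07), Tsc22d3 at 218 and 271 CPM (-0.31) and Pik3ip1, an inhibitor of PI3K, at 101 and 122 CPM (-0.28). Of 14 resting and lymphoid homing genes Sox4 was higher and Dapl1 lower, with 7 intervals below equality and 1 above. Among them Il7r was at 194 CPM in ICOS FC and 281 CPM in ICOS WT (-0.54 [-0.62, -0.45]) and S1pr1, the receptor for egress into blood and lymph, at 221 and 258 CPM (-0.22). None of 15 cholesterol synthesis genes passed, 6 intervals lay below equality and 0 above, and the median of -0.21 became -0.02 in thinned cells. The largest of these differences were those of Sc5d, at 23.4 CPM in ICOS FC and 34.8 CPM in ICOS WT (-0.57), and Cyp51, at 19.0 and 27.0 CPM (-0.50). In the IL-2 and STAT5 list 0 of 14 genes passed in either direction (median -0.05), with Il2ra at 232 CPM in ICOS FC and 256 CPM in ICOS WT (-0.15 [-0.23, -0.07]) and Il2rb at 247 and 293 CPM (-0.25 [-0.33, -0.17]). In the other spleen cells Il2ra was at 131 CPM in ICOS FC and 103 CPM in ICOS WT (0.34), so that the ratios differed by -0.49 [-0.61, -0.37]. By cluster Il2ra was higher in ICOS FC in clusters 1 and 2 (0.31 and 0.36), its interval held equality in clusters 3 and 4 (0.24 [-0.01, 0.49] and -0.20 [-1.10, 0.67]), and it was lower in cluster 5 (-0.32 [-0.55, -0.08]). For Il7r the ratios of cluster 0 and the other cells differed by -0.54 [-0.64, -0.45], yet the clusters most like cluster 0 were also lower in ICOS FC, at -0.41 [-0.52, -0.30] in cluster 3 and -0.31 [-0.40, -0.22] in cluster 4, while clusters 1 and 2 were higher (0.37 and 0.28). The other cells hold clusters in different shares in the libraries, and the part of that mix in these differences was not tested. In the effector Treg list S100a4 was lower, at 7.59 CPM in ICOS FC and 13.5 CPM in ICOS WT, and 0 of 11 were higher. Of the 9 suppressive molecules measured Lag3 was higher, at 5.61 CPM in ICOS FC and 2.73 CPM in ICOS WT (1.04 [0.35, 1.75]). The interferon response, glycolysis, oxidative phosphorylation and ribosomal protein lists had 0 genes past the fold, with medians of -0.05, 0.00, 0.02 and 0.02.

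The 16 leading genes were then read in the lymph node libraries, whose cells the spleen clustering did not use; those cells differ from the spleen in tissue, challenge and library at once. The lymph node clusters divided into clusters high and low in the summed leading genes. Lymph node cluster 1 had 2041 CPM in ICOS FC and 2277 CPM in ICOS WT, cluster 5 had 1965 and 1898 CPM, and cluster 3 had 1718 and 2005 CPM, while clusters 0, 2, 4 and 7 lay between 419 and 738 CPM. Cluster 0 of the spleen itself stood at 1718 CPM in ICOS FC and 1967 CPM in ICOS WT. Spleen cluster 3 had 1373 and 1484 CPM and spleen cluster 6 had 1375 and 1702 CPM, so a high sum was not particular to cluster 0. The other spleen clusters lay between 373 and 879 CPM. In lymph node cluster 5, Ly6c1 made up 534 CPM of the sum in ICOS FC and 734 CPM in ICOS WT, and Gata1 was at 17.9 and 18.3 CPM. The 15 lowest genes ran the other way and summed to 218 and 211 CPM in lymph node cluster 1, against 6489 and 8487 CPM in lymph node cluster 0. Gata1 was at 39.9 CPM in ICOS FC and 44.2 CPM in ICOS WT in lymph node cluster 1 and at 27.9 and 32.7 CPM in cluster 3, and at 4.07 and 2.21 CPM in cluster 0. Bcl2 was at 648 and 638 CPM in cluster 1, and at 87.3 and 58.4 CPM in cluster 0. Lymph node cluster 6, with median depths of 1787.5 and 2022 UMIs per cell, had both sums high, at 3004 and 2181 CPM for the leading genes and 1903 and 2664 CPM for the lowest.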

How the data were processed

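The authors deposited expression as natural log values, in which UMIs were scaled to 10000 a cell and 1 was added, as the values show; the cell table deposited by the authors gives UMI counts, percent mitochondrial counts and cluster numbers (used as scores of identity only), and the UMAP axes are a deposited score used for the map alone. Cell Ranger 4.0.0, R 3.6.1, Seurat 3.0 and GRCm38.p6 (mm10) were named, per the submitters' processing notes; no source used here gives their roles or says whether doublets were removed, and no doublet caller was run. The table's names Control and KO were taken as ICOS WT and ICOS FC from the words alone.

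Inverting the log gave whole UMIs within 0.001 for 100% of 17846401 spleen and 8798056 lymph node values. UMIs were summed per cluster and library and divided by the total (CPM). Ratios carry exact conditional Poisson intervals and shares exact Clopper-Pearson intervals, both at 95%, and PCR and cell sampling are not covered. Differences between ratios carry approximate 95% counting intervals from a normal approximation (delta method). With 1 library a group no count model was fitted. The ratio step was tested on simulated data. List members needed 5 CPM and list medians had 0.5 CPM added. Gene positions come from GENCODE M21. Named genes were the 5 markers, Icos, Foxp3, the 15 highest and 15 lowest genes of the cluster by the smaller ratio of both libraries, the 12 highest and 12 lowest between libraries by the interval bound nearest equality, 10 each way per cluster pair and up to 4 per list. T cell receptor and immunoglobulin segments, haemoglobin and mitochondrial genes, Xist, Tsix, Y chromosome genes and unnamed gene models stayed out of the ranking. Members and the 32 lists were chosen with earlier results of these data known. Python 3.11.15, numpy 2.4.6, scipy 1.17.1 and pandas 2.3.3 were used. Some members of the lists are not reported here.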

Additional observations from a re-analysis of the deposited data

Results flagged for a closer look

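At 20 CPM or more, 46 genes had ratios of ICOS FC over ICOS WT of opposite sign in cluster 0 and in the other spleen cells with both intervals clear of equality, Bcl2, Il2ra and Il2rb among them. The 3 that also reached 1.5-fold in either were looked at again; the differences were not tested, since each group was 1 library. Gpr34, a lysophosphatidylserine receptor, had a log2 ratio of -0.37 in cluster 0 (16.5 CPM in ICOS FC and 21.4 CPM in ICOS WT) and 0.84 in the other cells (13.8 and 7.73 CPM). Top2a, a topoisomerase of dividing cells, had -0.66 in cluster 0 (4.99 and 7.91 CPM) and 0.56 in the other cells (20.5 and 14.0 CPM). Ctla2a, a cysteine protease inhibitor, had 0.91 in cluster 0 (5.51 and 2.93 CPM) and -0.61 in the other cells (17.3 and 26.5 CPM). By cluster, the intervals of Gpr34 in clusters 3 and 4, of Top2a in clusters 2, 3 and 5 and of Ctla2a in clusters 4 and 5 held equality.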

How the results depend on the processing

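No paired analysis was possible because each group was 1 library. No named gene past the rule of size changed direction. Several list medians did, among them immediate early genes of cluster 0 against the other cells in ICOS FC (-0.14, and 0.05 with scaling by the median of gene ratios), and conventional CD4 T markers (-0.71 and -0.64, against 0.10 and 0.56 in cells with a Foxp3 UMI); the cause was not tested. Against the other spleen cells, the 38 higher and 266 lower genes became 66 and 167 with scaling by the median of gene ratios, 75 and 628 at a minimum of 5 CPM and 25 and 100 at 50 CPM. The higher count became 82 without ribosomal protein and mitochondrial genes in the totals and 25 with the other clusters at equal weight, and the lower count became 415 in cells with a Foxp3 UMI and 409 without cluster 4. For ICOS FC against ICOS WT within cluster 0, the 18 higher and 9 lower genes became 31 and 24 without ribosomal protein and mitochondrial genes in the totals, 38 and 47 in cells thinned to 2000 UMIs, 62 and 65 among cells holding a Foxp3 UMI, 77 and 71 at 5 CPM and 7 and 5 at 50 CPM, and the lower count became 14 in cells under 5% mitochondrial counts and 15 with the mean of each cell's CPM. Of the 18 and 9 genes, 15 and 6 passed in thinned cells and 16 and 5 among cells holding a Foxp3 UMI, which left 459 cells of ICOS FC and 485 of ICOS WT. The share of cells in cluster 0 became 36.9% in ICOS FC and 41.3% in ICOS WT without cluster 4, 36.3% and 39.4% in cells under 5% mitochondrial counts, and 45.5% and 43.3% by the earlier numbering, under which the order of the libraries turns. Of the named genes' values between the libraries, 33 no longer met the rule, 14 newly met it and 1237 did neither; for cluster 0 against the other cells these were 35, 4 and 395. Genes past the rule of size between the libraries that lie under 50 CPM include Fosb, Ly6k, Sik1, Sox4, Dusp1, Rgs2, Pink1, Tnfaip3, Myo6, Jaml and Ggact, which limits their precision.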
